A study of Mus musculus with 6 samples.

Results

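This account follows 40 mouse genes of the lysosome and of autophagy through 24 h of culture of isolated pancreatic islets at 2 glucose levels. The genes were chosen by name, as the rows of the count table whose Ensembl identifier carries a listed symbol in GENCODE M21 on GRCm38, and 40 of 40 symbols were found among the 46983 genes of the table. They comprise the transcription factor genes Tfeb, Tfe3 and Mitf, the folliculin and Rag genes that control those factors, lysosomal enzymes and membrane proteins, and genes of autophagosome formation and cargo capture. Islets are the hormone-secreting cell clusters of the pancreas and hold the insulin-producing beta cells. All 6 libraries were polyadenylated RNA from wild-type islets kept in CMRL medium, 3 at low (non-stimulating) and 3 at high (stimulating) glucose. The series addresses redox signaling in the metabolic adaptation of beta cells. The glucose concentrations, strain, sex and age of the mice and the number of animals per library are not stated in the labels used here.

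Lysosomes are acidic compartments that degrade proteins, glycans and lipids with hydrolases that work at low pH. Autophagy delivers cytoplasm to them: a membrane grows around cargo, ATG8 proteins of the LC3 and GABARAP groups coat it, and receptors such as p62 (encoded by Sqstm1) tie ubiquitin-marked cargo to that coat. TFEB, TFE3 and MITF are related basic helix-loop-helix factors that bind E-boxes in promoters of lysosomal genes. The kinase complex mTORC1, which sits on lysosomes when nutrients are plentiful, phosphorylates them and holds them in the cytosol, so their activity is set largely by location rather than by mRNA level. In beta cells, lysosomes also degrade insulin granules.

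Library totals ranged from 10596020 to 12730985 counts at low and from 14150726 to 15846235 counts at high glucose. The 2 groups had libraries of unequal makeup: 20 acinar-cell markers, genes of the enzyme-secreting exocrine pancreas, took 46.3% to 61.7% of the counts at low and 12% to 24.1% at high glucose. A list of 20 hormone and granule genes, which mark the labelled islet tissue, took 2.35% to 4.97% and 4.16% to 11.1%, or 41321 to 52980 CPM and 30438 to 62026 CPM on the TMM scale used below. High glucose replicate 1 held the smallest acinar share and the largest hormone share. Levels below are in CPM (counts per 1000000, scaled by TMM, a method that centres most genes on no change), and changes are log2 fold changes of high over low glucose ± SE from edgeR's quasi-likelihood test, called at a Benjamini-Hochberg adjusted p under 0.05. With plain library totals in place of TMM, the median gene's log2 fold change rose from 0.01 to 1.16. That shift is the baseline for every value given with library totals. Markers of intestinal epithelium summed to 2105 to 5933 CPM at low and 148 to 221 CPM at high glucose. The libraries held RNA of several cell types, so fewer cells of a type and less RNA per cell could not be told apart.

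Of the 40 genes, 12 rose at high glucose, 2 fell and 26 did not pass (36 rose and 0 fell with library totals, 6 and 0 with hormone-gene sizes, which scale each library by its hormone and granule genes). Among all 13996 genes tested, 13.3% rose and 14.2% fell, against 30.0% and 5% of the 40. The 40 genes were chosen with earlier results of these data known, so this contrast is a description and no test. The median log2 fold change of the 40 was 0.22, and that of all genes 0.01. Sqstm1, the cathepsin genes Ctsl and Ctsb, the alpha-galactosidase gene Gla, the autophagy gene Wipi1 and Gpnmb, which encodes a lysosomal glycoprotein, rose at least 2-fold. Another 6, Tfe3, Npc1, Gaa, Lamp2, Ctsz and Mcoln1, rose by less than that. The 2 that fell were Tfeb (-0.64) and the cargo receptor gene Nbr1 (-0.79), which with library totals had positive values (0.52 and 0.41, neither passing and both below the shift). Libraries of the groups did not overlap, with high above low, for 17 of the 40 (42.5%, against 23.5% of all genes), and with high below low for 3 (7.5%, against 22.4%). With library totals 59.6% of all genes rose and 4.49% fell, and with hormone-gene sizes 7.26% and 7.55%. These fits leave the libraries unpaired. With replicate numbers entered as blocks, 13 of the 40 rose and 2 fell (15.7% and 17.7% of all genes). There Ctsd rose, Ulk1 fell and Tfeb did not pass.

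All 40 genes passed the filter on low counts, and 39 of them reached its level in all 3 low glucose libraries. Gpnmb was the exception. It did not reach that level in every low glucose library and passed only with the help of high glucose libraries, so its call is no separate support for a difference. Leaving out 1 library at a time gave 6 to 13 higher and 0 to 4 lower genes of the 40. Of all genes, 4.86% to 19.8% were higher and 7.11% to 20.5% lower in the same fits. Both shares were lowest without low glucose replicate 2 and highest without high glucose replicate 1. Of the 40, the fewest rose without low glucose replicate 2 (6), and none fell when low or high glucose replicate 2 or 3 was left out. Without high glucose replicate 1, 13 rose and 4 fell, and without low glucose replicate 1, 9 rose and 1 fell.

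**Figure D1:**
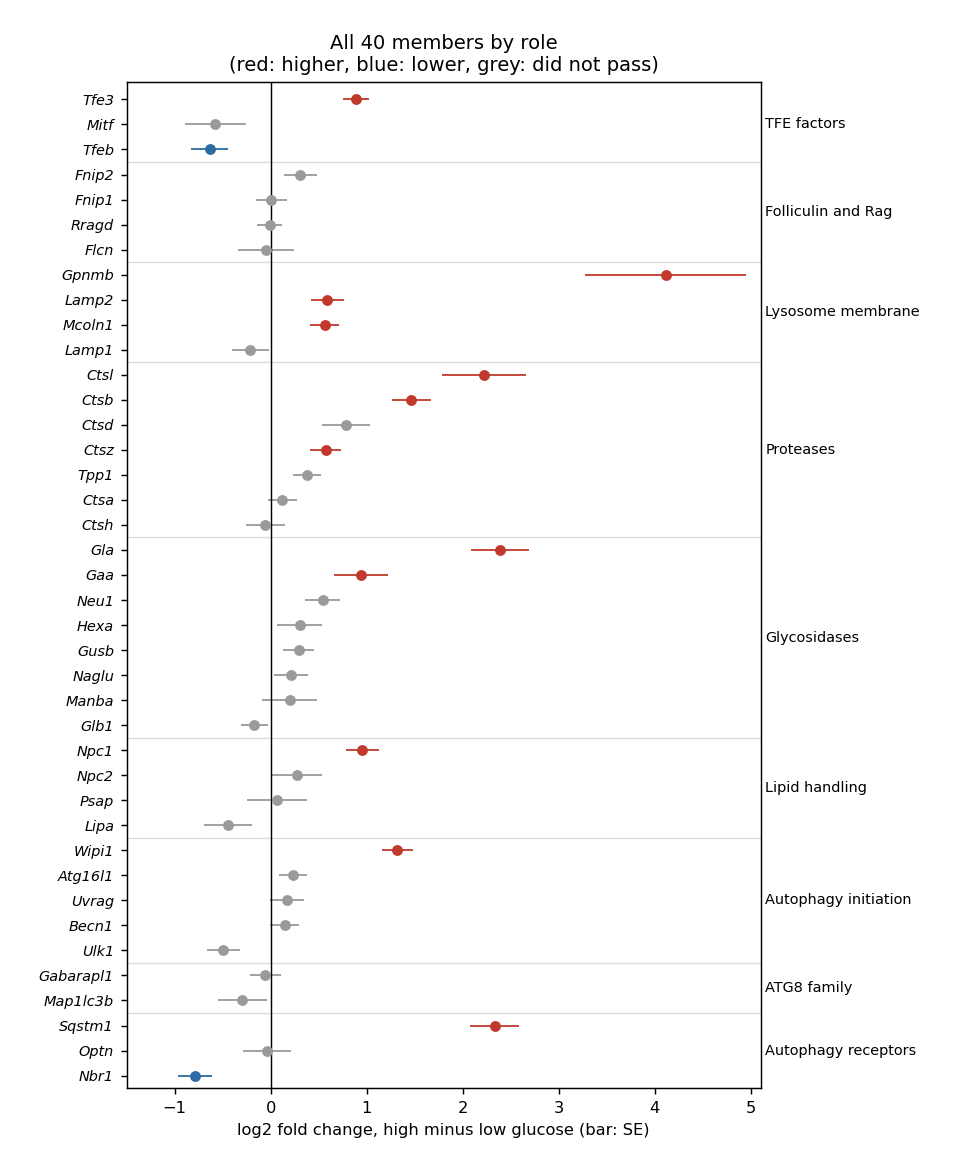
Log2 fold change of high over low glucose for the 40 genes, grouped by role, with horizontal bars for the SE (3 libraries per group). Red points rose, blue points fell and grey points did not pass; the largest values belong to Gpnmb (4.11), Gla (2.39), Sqstm1 (2.33) and Ctsl (2.22), and the blue Tfeb and Nbr1 have positive values with library totals (0.52 and 0.41).

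Because TFEB, TFE3 and MITF bind E-boxes, the promoters of the 40 genes were searched for the letters CACGTG and for the longer forms TCACGTG (on either strand) and TCACGTGA, in RefSeq windows (GRCm38.p6) from 250 bases before to 50 after the transcription start. CACGTG reads the same on both strands, and each longer form contains the shorter. Windows were found for 35 of the 40 genes, and 10 of these 35 (28.6%) held CACGTG, 9 (25.7%) held TCACGTG and 4 (11.4%) held TCACGTGA. Among all 27025 genes with a window, the shares were 8.09%, 4.29% and 1.12%. Of the 10 matched genes that rose, 4 held CACGTG (Mcoln1, Gla, Gaa and Ctsl). Of the 25 matched genes that did not rise, 6 did (Lamp1, Ctsd, Ctsa, Glb1, Fnip1 and Naglu). The sites of the rising genes are shown first, each in 30 bases read 5′ to 3′ on the strand of the gene, with CACGTG in capitals.

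Gla, chrX:134601215-134601244, minus strand: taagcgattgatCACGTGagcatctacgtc
Gla, chrX:134601182-134601211, minus strand: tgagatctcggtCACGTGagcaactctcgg
Mcoln1, chr8:3500436-3500465, plus strand: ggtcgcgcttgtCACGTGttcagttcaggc
Mcoln1, chr8:3500462-3500491, plus strand: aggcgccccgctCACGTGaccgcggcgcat
Gaa, chr11:119267811-119267840, plus strand: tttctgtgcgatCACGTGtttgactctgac
Ctsl, chr13:64370739-64370768, minus strand: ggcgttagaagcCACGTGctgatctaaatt

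Gla held TCACGTGA at both of its sites, and in Ctsl the flanking letters matched neither longer form. CACGTG was also found in windows of genes that did not pass. The sites of Ctsa and Ctsd, which encode cathepsins A and D, and the 250 bases before the start of Lamp1, which hold CACGTG 4 times, are shown for comparison in the same way; the first Ctsd stretch is cut short by the end of its window, and the second Ctsa site lies just after the transcription start.

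Ctsa, chr2:164833749-164833778, plus strand: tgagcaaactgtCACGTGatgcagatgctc
Ctsa, chr2:164833766-164833795, plus strand: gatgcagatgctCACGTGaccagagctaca
Ctsd, chr7:142388055-142388077, minus strand: tccccCACGTGacctgtatccag
Ctsd, chr7:142387908-142387937, minus strand: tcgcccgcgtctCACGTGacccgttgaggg
Lamp1, chr8:13158911-13159160, plus strand: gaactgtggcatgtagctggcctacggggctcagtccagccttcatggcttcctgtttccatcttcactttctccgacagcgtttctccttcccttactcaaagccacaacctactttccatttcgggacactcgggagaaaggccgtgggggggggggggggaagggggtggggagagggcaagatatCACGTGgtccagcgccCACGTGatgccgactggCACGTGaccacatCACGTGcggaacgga

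Lamp1, with 4 such sites, had a log2 fold change of -0.21 ± 0.20 (0.98 with library totals, below the shift). The windows of the other matched genes that rose (Sqstm1, Wipi1, Tfe3, Lamp2, Ctsz and Gpnmb) held none of these letters. The windows of Wipi1 and Ctsl lie inside the spans given for these genes below, downstream of their annotated starts. The Ctsa window that holds the sites shown also lies downstream of that gene's annotated start (chr2:164832873). The other Ctsa window, just before that start, held no CACGTG. Whether such sites bear on the changes was not tested. Among the other pathway genes described below, CACGTG was in 25.0% of matched V-ATPase genes (4 of 16), 23.7% of other lysosomal genes (9 of 38), 16.1% of other autophagy genes (5 of 31), 26.7% of selective autophagy receptor genes (4 of 15) and 22.2% of mTORC1 and Rag genes (6 of 27). A match is a stretch of letters and no evidence of binding.

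The 3 factor genes did not move together. Tfe3 (chrX:7762560-7775202) was present at 28.1, 26.3 and 24.8 CPM in low glucose replicates 1 to 3 and at 44.9, 51.6 and 50.6 CPM in high glucose replicates 1 to 3. Each high glucose library lay above each low one, a 1.85-fold rise (0.89 ± 0.13, edgeR adjusted p = 0.00392). Tfeb (chr17:47737030-47792419) had 9.12, 8.64 and 10.1 CPM under low and 6.30, 5.84 and 5.74 CPM under high glucose. Its libraries were separate in the opposite direction, and it fell by 0.64 ± 0.19 (edgeR adjusted p = 0.0431), although the value with library totals was 0.52. Mitf (chr6:97807052-98021349), the factor best known from melanocytes, had 6.28, 7.81 and 6.45 CPM under low and 6.40, 3.05 and 4.23 CPM under high glucose, groups that overlapped, and did not pass (-0.58 ± 0.32).

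Per kilobase of exon (RPKM), Tfe3 was the most abundant of the 3 in both groups, at 2.85 ± 0.177 RPKM at low and 5.29 ± 0.393 RPKM at high glucose (mean ± SD, n = 3 per group). Tfeb had 1.64 ± 0.127 and 1.05 ± 0.0520 RPKM, and Mitf 1.105 ± 0.136 and 0.736 ± 0.275 RPKM. The ratio of Tfe3 to Tfeb within a library, which no scaling between libraries can change, was 1.89, 1.86 and 1.51 at low and 4.36, 5.40 and 5.40 at high glucose, without overlap. The call for Tfeb was weak. It ended on leaving out low glucose replicate 1 (-0.65), 2 (-0.67) or 3 (-0.56), high glucose replicate 2 (-0.61) or 3 (-0.60), or with replicate numbers entered as blocks (-0.63, edgeR adjusted p = 0.0509). It was also lost without the filter on low counts (-0.54) and with hormone-gene sizes (-0.38). Mitf passed only without high glucose replicate 1 (-0.90), the high glucose library in which it was highest, and with library totals its value was 0.64. Tfe3 passed with each library left out (0.86 to 0.95), but not with hormone-gene sizes (1.20).

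Folliculin, encoded by Flcn, forms a complex with FNIP1 or FNIP2 that acts on the GTPases RagC and RagD, and through them lets mTORC1 phosphorylate TFEB and TFE3. None of these 4 members passed. Flcn had 29.3, 32.7 and 20.8 CPM under low and 38.3, 19.9 and 21.8 CPM under high glucose, with the highest value in high glucose replicate 1 (-0.05 ± 0.29). Fnip1 had 39.1, 35.2 and 36.0 and 42.9, 38.0 and 30.0 CPM (0.01 ± 0.17). For Fnip2 the levels were 27.9, 30.3 and 30.5 and 44.5, 34.9 and 30.2 CPM (0.31 ± 0.17). In all 3 genes the low and high glucose libraries overlapped. Rragd, the RagD gene and itself a known target of these factors, had 45.9, 50.04 and 44.2 and 47.7, 48.8 and 42.7 CPM, nearly the same range (-0.01 ± 0.13). With library totals the values of Flcn and Rragd were 1.13 and 1.15, close to the shift of 1.16.

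Among the cargo receptors, Sqstm1 (chr11:50199366-50210827) rose and Nbr1 (chr11:101552149-101581951) fell, although with library totals Nbr1 had a value of 0.41. Sqstm1 encodes p62, which gathers ubiquitin-marked protein aggregates and also binds KEAP1, the inhibitor of NRF2. Its levels were 213, 271 and 296 CPM under low and 1145, 1458 and 1329.9 CPM under high glucose. The lowest high glucose library was far above the highest low one, a 5.04-fold rise (2.33 ± 0.25, edgeR adjusted p = 0.00141). Sqstm1 was the member with the smallest p. Its exons share 580 bases with Mrnip on the opposite strand, a gene with 0.399 to 1.76 CPM.

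NBR1 is built like p62 and works beside it. Nbr1 had 201, 227 and 256 CPM under low and 146, 131 and 120.3 CPM under high glucose, with no overlap, a fall of 0.79 ± 0.18 (edgeR adjusted p = 0.0169; 0.41 with library totals). The ratio of Sqstm1 to Nbr1 per kilobase within a library was 2.17, 2.44 and 2.37 at low and 16.1, 22.8 and 22.6 at high glucose. Nbr1 no longer passed after removal of low glucose replicate 2 (-0.77) or 3 (-0.68) or of high glucose replicate 2 (-0.77) or 3 (-0.71), and with hormone-gene sizes (-0.54). Optn, the gene of the receptor optineurin, had 36.9, 34.9 and 18.7 CPM and 26.99, 30.9 and 30.4 CPM. These ranges overlapped, and it did not pass (-0.04 ± 0.25).

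The ATG8 genes that these receptors bind did not pass. Map1lc3b, which encodes LC3B, the usual marker of autophagosomes, had 46.0, 67.3 and 65.1 CPM under low and 33.0, 53.3 and 58.8 CPM under high glucose (-0.30 ± 0.25). Gabarapl1 had 78.6, 89.4 and 98.3 CPM and 96.2, 77.8 and 81.5 CPM (-0.06 ± 0.16). Both pairs of ranges overlapped. Per kilobase, Sqstm1 exceeded Map1lc3b 10.4, 9.03 and 10.2-fold in replicates 1 to 3 of the low glucose group and 77.7, 61.3 and 50.7-fold in those of the high glucose group.

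Of the 5 genes of autophagosome formation, Wipi1 rose and the others did not pass. WIPI1 binds the lipid PI3P on the growing membrane. Wipi1 (chr11:109573331-109611967) had 34.6, 41.1 and 44.7 CPM under low and 105, 88.5 and 106 CPM under high glucose. The groups were far apart relative to the spread within them, a 2.49-fold rise (1.32 ± 0.16, edgeR adjusted p = 0.00194). Ulk1, the gene of the kinase that starts autophagy, had 43.6, 48.7 and 51.3 CPM and 26.7, 37.3 and 37.9 CPM. Each high glucose value of Ulk1 lay below each low one, but it did not pass (-0.49 ± 0.17, edgeR adjusted p = 0.0721), except with the replicate block (-0.51, edgeR adjusted p = 0.0383); with library totals its value was 0.65, which passed as a rise but lay below the shift. Becn1 and Uvrag, which encode subunits of the PI3P-making complexes, had values of 0.15 ± 0.15 and 0.17 ± 0.18. Atg16l1, which directs the lipid attachment of LC3, had 0.23 ± 0.15, with 21.6, 19.9 and 19.2 CPM under low and 25.2, 24.4 and 21.7 CPM under high glucose, separate but close.

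**Figure D2:**
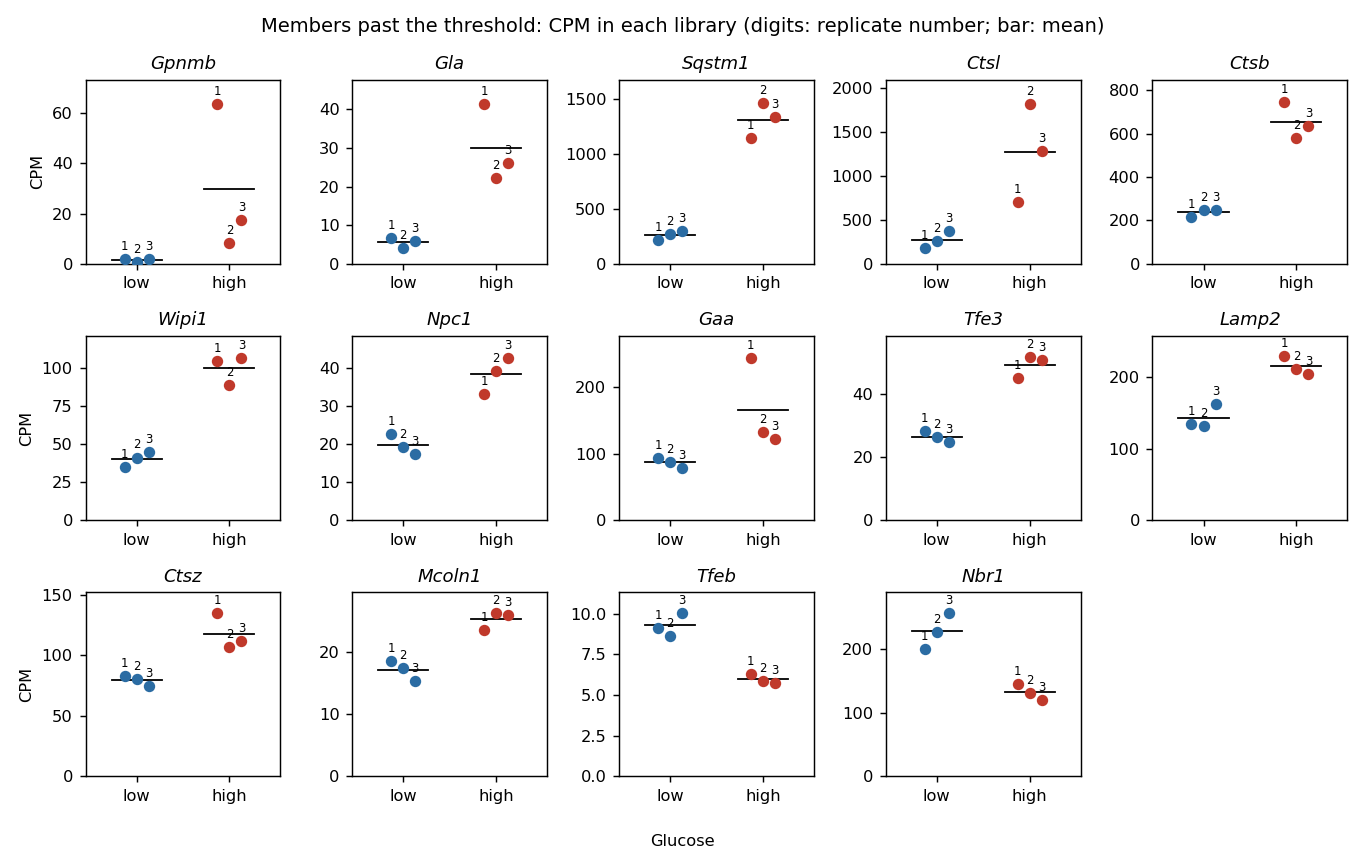
CPM in each library for the 14 genes that passed the test, in order of log2 fold change, with a linear axis from 0 in each panel. Points are libraries (blue low, red high glucose), digits are replicate numbers and bars are group means; the groups did not overlap in any panel, and Gpnmb, Gla and Gaa were highest in high glucose replicate 1, where Ctsl was lowest of the high glucose libraries. The 2 panels with lower values at high glucose, Tfeb and Nbr1, have positive log2 fold changes with library totals (0.52 and 0.41).

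Of the 7 protease genes, 3 rose and none fell. Ctsl (chr13:64359337-64370890), the gene of the cysteine protease cathepsin L, had 178, 262 and 377 CPM under low and 702, 1826 and 1288 CPM under high glucose. The high glucose libraries were all above the low ones but differed among themselves, with replicate 1 lowest and replicate 2 highest. The rise was 4.67-fold (2.22 ± 0.44, edgeR adjusted p = 0.0106), and it missed the threshold on leaving out low glucose replicate 2 (2.20). Ctsb (chr14:63122462-63145923), the cathepsin B gene, had 215, 249.7 and 246 CPM and 746, 581 and 636 CPM, a 2.76-fold rise (1.46 ± 0.21, edgeR adjusted p = 0.00315). Here high glucose replicate 1 was the highest. Ctsb shares 774 exonic bases with Fdft1, a cholesterol synthesis gene on the opposite strand that also rose, from 22.5 to 27.8 CPM to 53.7 to 61.1 CPM. The reads of the 2 genes in that stretch could not be told apart without a stated strand setting. Longer stretches were shared on the opposite strand by Becn1 with Cntd1 (3104 bases), Ctsl with Gm47123 (1742) and Uvrag with Gm45187 (1589). Ctsd shared 808 bases with Gm49369 on the same strand. Reads in these stretches could not be assigned either.

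Ctsz, which encodes cathepsin Z, had 83.4, 80.8 and 74.4 CPM under low and 135, 107 and 112 CPM under high glucose, without overlap, and rose by 0.57 ± 0.16 (edgeR adjusted p = 0.0331). It no longer passed after removal of low glucose replicate 1 (0.61), 2 (0.60) or 3 (0.54) or of high glucose replicate 2 (0.65) or 3 (0.62). Ctsd, the gene of the aspartic protease cathepsin D, had 225, 307 and 345 CPM and 398, 576 and 534 CPM. Its groups were separate, but it missed the threshold (0.78 ± 0.25, edgeR adjusted p = 0.0548) and passed with the replicate block (0.79, edgeR adjusted p = 0.015), in DESeq2 (0.77), without the filter on low counts (0.88) and without high glucose replicate 1 (0.93). Tpp1, the gene of tripeptidyl peptidase, had 42.3, 41.4 and 37.1 CPM and 59.0, 52.0 and 46.2 CPM, again separate and not past the test (0.38 ± 0.15). Ctsa, whose product protects the enzymes made from Neu1 and Glb1 (0.12 ± 0.15), and the cathepsin H gene Ctsh (-0.06 ± 0.20) had overlapping groups.

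Of the 8 glycosidase genes, which encode enzymes that remove sugars from glycoproteins, glycolipids and glycogen, 2 rose and none fell. Gla (chrX:134588149-134601125) encodes alpha-galactosidase A, the enzyme deficient in Fabry disease. Its levels were 6.78, 4.16 and 5.98 CPM under low and 41.4, 22.2 and 26.0 CPM under high glucose. All high glucose libraries were well above the low ones, with replicate 1 highest, a 5.24-fold rise (2.39 ± 0.30, edgeR adjusted p = 0.00221). Gaa (chr11:119267887-119285454), the gene of acid alpha-glucosidase, which degrades glycogen in lysosomes and is deficient in Pompe disease, had 93.5, 87.8 and 78.9 CPM and 243, 133 and 122 CPM. The high glucose mean of Gaa was carried by replicate 1, although the other two also lay above every low glucose library (0.94 ± 0.28, edgeR adjusted p = 0.0441). Without that library the value was 0.55 and passed, and it missed the threshold on leaving out low glucose replicate 1 (1.00), 2 (0.96) or 3 (0.89) or high glucose replicate 2 (1.08).

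Neu1, the sialidase gene, had 38.6, 41.9 and 47.2 CPM under low and 77.1, 56.1 and 52.0 CPM under high glucose. The groups were separate by a narrow margin, and it did not pass (0.54 ± 0.19, edgeR adjusted p = 0.0678). Gusb, the beta-glucuronidase gene, was also separate without passing (0.29 ± 0.16). The beta-hexosaminidase gene Hexa (0.30 ± 0.23), the heparan sulfate enzyme gene Naglu (0.21 ± 0.17) and the beta-mannosidase gene Manba (0.20 ± 0.29) overlapped between the groups. So did Glb1, the gene of beta-galactosidase, with 29.5, 31.1 and 36.0 CPM and 29.2, 29.7 and 26.96 CPM (-0.17 ± 0.14; 1.00 with library totals).

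Among the 4 genes of lysosomal lipid handling, Npc1 rose. NPC1 and NPC2 together move cholesterol out of lysosomes. Npc1 (chr18:12189692-12236400) had 22.6, 19.3 and 17.3 CPM under low and 33.1, 39.2 and 42.8 CPM under high glucose, with no overlap, a 1.94-fold rise (0.95 ± 0.17, edgeR adjusted p = 0.00732) that did not pass with hormone-gene sizes (1.28). Npc2 had 65.5, 66.3 and 68.4 CPM and 114, 54.4 and 73.8 CPM, and did not pass (0.28 ± 0.26). It was highest in high glucose replicate 1, with replicate 3 above and replicate 2 below every low glucose library. Psap, whose product is cut into the saposins that help degrade sphingolipids, had 451, 374 and 378 CPM and 624, 305 and 331 CPM (0.07 ± 0.31). It too was highest in high glucose replicate 1, but high glucose replicates 2 and 3 lay below every low glucose library. Without high glucose replicate 1 the values of Npc2 and Psap were -0.06 and -0.33, and neither passed. Lipa, the acid lipase gene, had 31.2, 31.1 and 22.8 CPM and 28.2, 15.9 and 18.3 CPM (-0.45 ± 0.25) and passed only without high glucose replicate 1 (-0.73); with library totals its value was 0.72.

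Of the 4 lysosomal membrane members 3 rose. Lamp2, which encodes a major glycoprotein of the lysosomal membrane, had 134, 132 and 162 CPM under low and 229, 211 and 204 CPM under high glucose, separate groups (0.59 ± 0.17, edgeR adjusted p = 0.0379). The related gene Lamp1 had 369.8, 459 and 449 CPM and 395, 370.2 and 337 CPM, overlapping groups, and did not pass. Mcoln1, the gene of the lysosomal calcium channel TRPML1, had 18.5, 17.5 and 15.3 CPM and 23.5, 26.3 and 25.9 CPM, separate groups (0.56 ± 0.15, edgeR adjusted p = 0.0316). The calls for Lamp2 and Mcoln1 were weak. Lamp2 missed the threshold on leaving out low glucose replicate 1 (0.55) or 2 (0.55) or high glucose replicate 2 (0.61) or 3 (0.64), and Mcoln1 on leaving out low glucose replicate 2 (0.59) or 3 (0.50) or high glucose replicate 2 (0.54) or 3 (0.55).

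Gpnmb (chr6:49036546-49070929) encodes a glycoprotein of lysosomes and melanosomes that is also made by macrophages. Its reads numbered 25, 5 and 13 in the 3 low glucose libraries, in replicate order, and 1792, 167 and 342 in the high glucose ones, or 2.09, 0.831 and 2.04 CPM and 63.4, 8.34 and 17.2 CPM. Every high glucose library was above every low one, and high glucose replicate 1 held 7.60 times the level of replicate 2 and 3.68 times that of replicate 3. The log2 fold change was 4.11 ± 0.84, the widest error of the 40 (edgeR adjusted p = 0.0118). It was 2.89 and passed without high glucose replicate 1, and missed the threshold on leaving out low glucose replicate 2 (3.86) or in limma-voom (3.66). Gpnmb needed the high glucose libraries to pass the filter on low counts, so its calls are no separate support for a difference.

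The 19 macrophage markers summed to 367, 287 and 398 CPM for low glucose and to 391, 97.3 and 165 CPM for high glucose. Among the high glucose libraries, replicate 1 was thus highest for these markers as for Gpnmb. Of the 19 markers 2 rose (Cd14 and Cd68) and 5 fell (C1qa, Mrc1, Aif1, Cx3cr1 and Cd163; 11 fell with the replicate block), and Cd163 was at 0 counts in high glucose replicate 3 and at 1 in replicate 2. Over the 19 markers the log2 fold changes ran from -4.96 to 4.01, with 16 negative and 3 positive. Of the 12 that did not pass, the pan-leukocyte marker Ptprc had 54.8, 30.6 and 40.4 CPM under low and 44.1, 3.84 and 12.8 CPM under high glucose. The myeloid lysozyme gene Lyz2, which did not pass either, had 75.8, 63.7 and 96.9 CPM and 73.2, 4.69 and 9.83 CPM. Both genes overlapped between the groups. The part of macrophages in the Gpnmb values was not tested. The 9 duct markers did not move as a group. Of these, 4 rose (Krt19, Krt7, Spp1 and Cldn4) and 5 did not pass, with values that include 0.36 (Epcam), -0.17 (Sox9), -0.66 (Muc1, which fell with the replicate block) and -2.29 (Cftr, with every high glucose library below the low ones); with library totals 7 rose and none fell. None of the 9 was at 0 counts in any library, and they summed to 666 to 969.8 CPM at low and 3864 to 4822 CPM at high glucose, or to 587 to 836 and 1176 to 3076 CPM without Spp1. Acinar markers moved the other way, with 17 of 20 lower (20 with the replicate block) and none at 0 counts in any library; their shares of the counts are given above. Of 12 beta-cell markers 6 fell (Slc2a2, Mafa, Slc30a8, Ero1lb, Ucn3 and Pdx1) and Pcsk1 rose, while Ins1 (-0.43 ± 0.44) and Ins2 (-0.41 ± 0.51) did not pass. With library totals 4 of the 12 fell and 2 rose, and with hormone-gene sizes 5 fell and none rose. Ins1, Ins2, Iapp, Slc30a8 and Pcsk1 are also among the hormone and granule genes that set those sizes. The count with hormone-gene sizes is therefore no independent check on the beta-cell markers. The 12 summed to 27069 to 34953 CPM at low and 18054 to 40261 CPM at high glucose. Of 8 stellate and fibroblast markers 3 fell (Acta2, Dcn and Lum; 1 with library totals, 4 with hormone-gene sizes), and the 8 summed to 248 to 335 CPM at low and 24.5 to 240.2 CPM at high glucose. The part of these cell types in the members' changes was not tested.

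**Figure D3:**
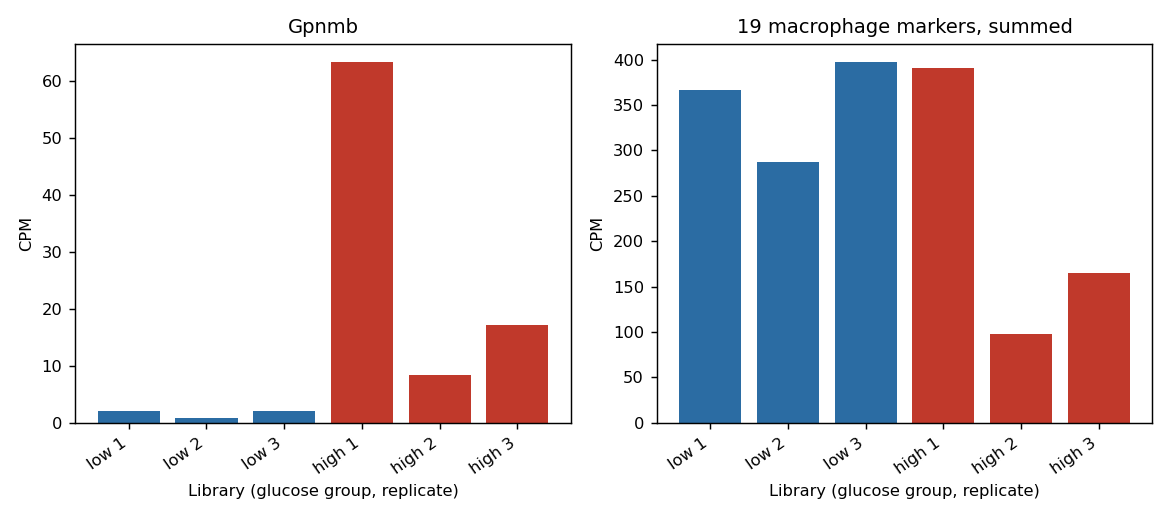
Gpnmb (left) and the sum of 19 macrophage markers (right) in CPM for each of the 6 libraries, blue for low and red for high glucose; bars are single libraries and start at 0. Gpnmb ran from 0.831 to 2.09 CPM at low and from 8.34 to 63.4 CPM at high glucose, while the marker sum at high glucose was 391 CPM in replicate 1 and 97.3 and 165 CPM in the others.

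The order of the members by level per kilobase changed between the groups. At low glucose Lamp1 (159 ± 18.2 RPKM), Psap (146 ± 15.9 RPKM) and Ctsd (124 ± 26.0 RPKM) were the most abundant (mean ± SD, n = 3 per group). Their ranges overlapped, although Lamp1 was above Ctsd within each low glucose library, and differences between genes were not tested. Sqstm1 followed at 77.5 ± 12.8 RPKM. At high glucose Sqstm1 led at 391 ± 46.9 RPKM, ahead of Ctsd (214 ± 39.6), Ctsl (196 ± 86.7), Psap (153 ± 64.4) and Lamp1 (137 ± 10.9 RPKM). Among the genes after Sqstm1, the ranges overlapped in every pair except Ctsd and Lamp1. Gpnmb was the least abundant member at low glucose (0.254 RPKM). Summed over the 40 genes, the level was 3199, 3542 and 3764 CPM for low glucose and 6210.4, 6902 and 6249 CPM for high glucose. Sqstm1, Ctsl and Ctsb accounted for 83.6% of the difference between the group means of that sum, and the other 37 genes went from 2732 ± 127 CPM to 3217 ± 349 CPM (mean ± SD, n = 3 per group).

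High glucose replicate 1, the library with the smallest acinar share, was the highest of the 3 high glucose libraries for 25 of the 40 genes, against 41.2% of all genes tested. The members differed in which library was highest: Gla, Gaa, Gpnmb, Npc2 and Psap peaked in that library, whereas Ctsl, Sqstm1, Tfe3, Npc1 and Mcoln1 were lowest there among the 3.

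**Figure D4:**
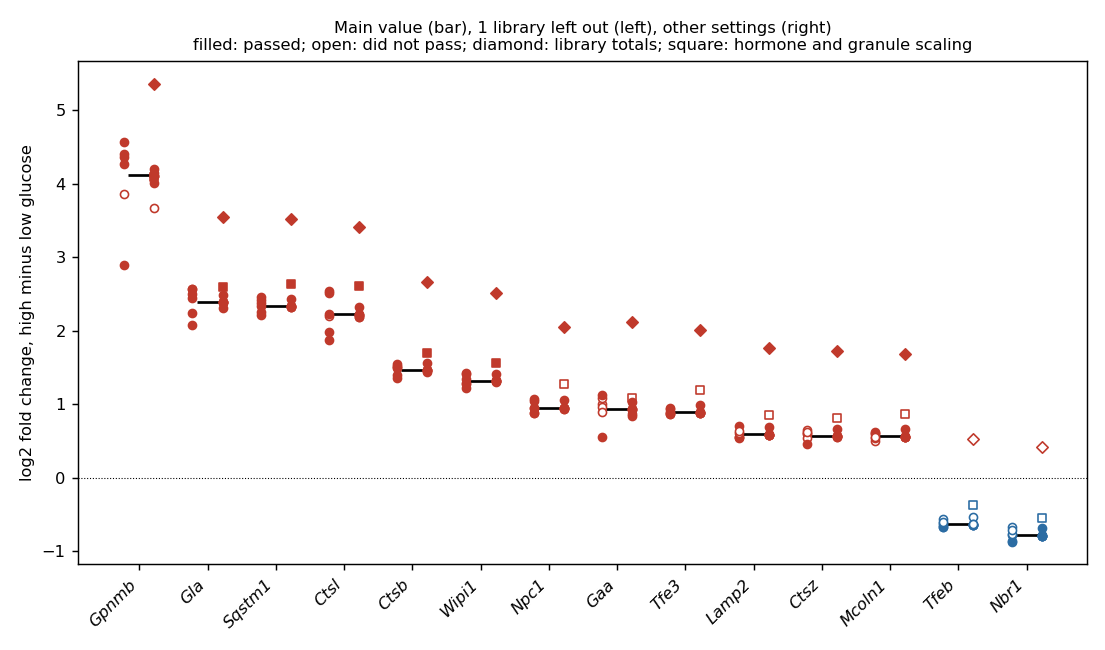
Log2 fold change of the 14 called genes in the main analysis (black bar), with 1 library left out (points to the left) and under the other settings (points to the right); filled symbols passed the test and open ones did not, diamonds are library totals and squares hormone-gene sizes. Sqstm1, Ctsb, Gla and Wipi1 are filled throughout, and Tfeb and Nbr1 turn positive with library totals (0.52 and 0.41).

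Sqstm1, Ctsb, Gla and Wipi1 passed in the same direction under all 15 alternatives tried. With library totals their values were 3.52, 2.66, 3.55 and 2.51. All 12 genes that rose were above the shift of 1.16 there, the lowest being Mcoln1 (1.68). Library totals rescale whole libraries, so each gene's value moves by nearly the same amount. Staying above the shift is therefore no separate support for these rises. With hormone-gene sizes, where the median of all genes was 0.28, the 6 genes that rose at least 2-fold passed and no other member did.

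Lists of further genes of the same pathways were set beside the 40. The V-ATPase is the proton pump that acidifies lysosomes and secretory granules. Of its 22 listed subunit genes 18 were tested, and 3 rose and none fell (5 and 0 in the blocked fit, 17 and 0 with library totals, 0 and 0 with hormone-gene sizes, 7 and 0 without the filter, 5 and 0 in DESeq2, 1 and 0 without low glucose replicate 2). The share that rose was 16.7%, against 13.3% of all genes. Their median log2 fold change was 0.42, and 8 of the 18 had high glucose libraries all above the low ones (23.5% of all genes did). Atp6v0e had 16.0, 17.5 and 22.5 CPM under low and 34.8, 33.9 and 35.5 CPM under high glucose (0.90 ± 0.17, edgeR adjusted p = 0.00868). Atp6v1g1 (0.69 ± 0.15) and Atp6v1h (0.57 ± 0.15) rose too, by less than 2-fold.

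Of 50 other lysosomal genes, 9 rose and 5 fell (36 and 0 with library totals, 3 and 1 with hormone-gene sizes). Without low glucose replicate 2 the counts were 2 and 2, without high glucose replicate 3 they were 5 and 2, without low glucose replicate 3 the number that fell was 3, and without high glucose replicate 1 it was 12. The main counts are 18% and 10% of the list, near the 13.3% and 14.2% of all genes, and the median of the list was 0.04. Both mannose 6-phosphate receptor genes, whose products carry new hydrolases to lysosomes, rose. M6pr had 58.5, 58.5 and 65.7 CPM and 117, 105 and 109.9 CPM (0.86 ± 0.14), and Igf2r was not in the 4 genes with the smallest p but rose by 0.82 ± 0.16. Sort1, the gene of sortilin, another sorting receptor for lysosomal proteins, had 116, 119 and 123 CPM under low and 59.0, 42.2 and 40.6 CPM under high glucose and fell by 1.33 ± 0.18 (-0.15 with library totals). The membrane protein gene Cd63 rose by 1.22 ± 0.22, and the alpha-mannosidase gene Man2b1 fell by 0.96 ± 0.13 (0.22 with library totals).

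Of 37 other genes of autophagosome formation and fusion, 0 rose and 2 fell in edgeR (2 and 2 in the blocked fit, 33 and 0 with library totals, 0 and 0 with hormone-gene sizes; 7 rose without high glucose replicate 1). Of all genes 13.3% rose and 14.2% fell. At an unadjusted p under 0.05, 4 were higher and 3 lower, and DESeq2 called 0 higher and limma-voom 0. The 2 that fell were Pik3c3, the gene of a PI3-kinase catalytic subunit, and Atg4a, the gene of a protease that processes ATG8 proteins. Pik3c3 had 32.4, 40.4 and 52.7 CPM under low and 19.6, 24.6 and 20.8 CPM under high glucose and fell by 0.94 ± 0.21 (0.25 with library totals). Atg4a fell by 0.67 ± 0.18 (0.51 with library totals). Removing low glucose replicate 2 or high glucose replicate 3 left none that fell, and removing low glucose replicate 3 or high glucose replicate 2 left 1.

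Of 17 genes for receptors of selective autophagy other than p62, NBR1 and optineurin, 7 fell and 2 rose, with a median of -0.52 (1 against 8 with library totals, 1 against 1 with hormone-gene sizes, 8 against 4 in the blocked fit). The 7 that fell are 41.2% of the list and the 2 that rose 11.8%, against 14.2% and 13.3% of all genes. Retreg1, a receptor for the endoplasmic reticulum, had 137, 232 and 272 CPM under low and 55.8, 64.6 and 53.0 CPM under high glucose and fell by 1.89 ± 0.27 (-0.64 with library totals). Ncoa4, the ferritin receptor gene, fell by 1.32 ± 0.17 (-0.15), and Ccpg1, another receptor gene for the endoplasmic reticulum, by 1.24 ± 0.22 (-0.03). In contrast Stbd1, whose product binds glycogen, had 4.94, 6.48 and 7.55 CPM and 17.2, 103 and 114 CPM and rose by 3.64 ± 0.69, with high glucose replicate 1 far below the other two. Leaving out low glucose replicate 2 left 3 that fell, and leaving out low glucose replicate 3 or high glucose replicate 2 or 3 left 4. The number that rose was 1 without any 1 low glucose library or without high glucose replicate 3, and 4 without high glucose replicate 1.

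Of 31 genes of mTORC1 and its Rag, Ragulator, GATOR and sestrin regulators, 3 rose and 3 fell (24 and 1 with library totals, 1 and 1 with hormone-gene sizes). These are 9.68% in each direction, against 13.3% and 14.2% of all genes. Of the 3 sestrin genes, whose products restrain mTORC1, Sesn1 fell, Sesn2 rose and Sesn3 did not pass (-0.08 ± 0.22). Sesn1 had 42.9, 53.5 and 35.2 CPM under low and 9.98, 7.24 and 8.26 CPM under high glucose and fell by 2.36 ± 0.21 (edgeR adjusted p = 8.98e-04; -1.19 with library totals). Sesn2 had 22.4, 17.5 and 19.97 CPM and 40.8, 84.6 and 79.5 CPM and rose by 1.77 ± 0.29 (edgeR adjusted p = 0.00504). Deptor, the gene of an mTOR inhibitor, fell by 1.28 ± 0.30 (-0.13 with library totals), and the Ragulator gene Lamtor2 by 0.77 ± 0.18 (0.43). Rragc, which encodes the other GTPase that folliculin acts on and was not among the 4 with the smallest p, rose by 0.49 ± 0.13. Removing low glucose replicate 1 or 2, or high glucose replicate 2 or 3, left 1 that rose, and removing low glucose replicate 2 or 3 left 1 that fell.

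**Figure D5:**
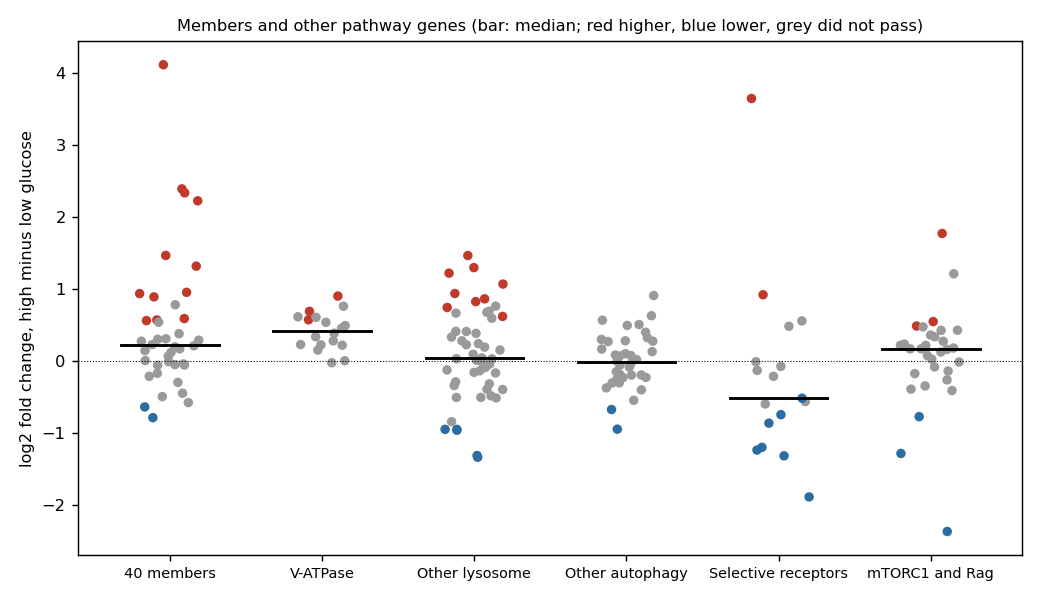
Log2 fold change of high over low glucose for the 40 members and for the tested genes of the 5 other lists; each point is a gene (red rose, blue fell, grey did not pass) and bars are medians, 0.22 for the members, 0.42 for the V-ATPase, 0.04 for other lysosomal genes, -0.01 for other autophagy genes, -0.52 for selective receptors and 0.17 for mTORC1 and Rag genes. With library totals every median is positive, since the median of all genes is then 1.16.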

How the data were processed

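The authors deposited 1 table of raw read counts per gene for 6 libraries, identified by Ensembl gene. STAR 2.7.3a and HTSeq 0.6.1p1 are named in the submitters' processing notes; no source used here gives the strand setting or annotation release. Counts were tested with edgeR 4.0.16 (R 4.3.3; TMM, filterByExpr with a minimum count of 10 and a minimum total of 15, quasi-likelihood F-test, Benjamini-Hochberg over 13996 genes). The 3 low and 3 high glucose libraries were grouped by their labels, and the SE was derived from the F statistic. RPKM used the union of GENCODE M21 exons.

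Alternatives were DESeq2 1.42.0, limma-voom 3.58.1, other library sizes and filters, a replicate block and each library left out. Deviations from the group means correlated at 0.40, 0.26 and 0.25 in the same-numbered pairs and at -0.31 to 0.07 in the others. In the replicate block the numbers in the labels were therefore taken to pair the libraries. The main fit did not use this pairing, because the labels state none, so its calls and SE are those of an unpaired comparison. Nothing in the labels says that libraries came from separate mice, so p-values measure only sample-to-sample spread, possibly technical. The code was tested on simulated data. The 40 genes and the other lists were chosen with earlier results of these data known. All 40 genes are named; those past the threshold, the 3 factor genes and the folliculin and Rag genes are given in every library, and up to 4 genes with the smallest p are named from each other pathway list. Beyond this rule, further members were given by library, and Igf2r, Rragc and marker genes were named, after their values were seen. The value of 1 duct marker is not reported here.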

Additional observations from a re-analysis of the deposited data

How the results depend on the processing

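Depth limits the values of Gpnmb at low glucose, which rest on 5 to 25 counts per library, and 3 libraries per group limit the precision of all values. With library totals the numbers that rose and fell were 36 and 0 of the 40 genes and 8337 and 628 of all genes; with library sizes taken from hormone and granule genes they were 6 and 0, and 1016 and 1056. Without a filter 14 of the 40 rose and 1 fell (9.8% and 9.23% of all genes). DESeq2 gave 13 and 2 (15.6% and 16.8%) and limma-voom 11 and 2 (10.7% and 14%). The remaining normalizations and the filter at 1 CPM gave 12 and 2 (13.1% to 13.3% and 14.2% to 14.3%). With 1 library left out, 6 to 13 of the 40 rose and 0 to 4 fell, and over all genes 708 to 2793 rose and 1035 to 2892 fell. In the paired analysis with the replicate block, 13 of the 40 rose and 2 fell (15.7% and 17.7% of all genes). There Ctsd and Ulk1 passed (0.79 and -0.51), Tfeb did not (-0.63), and no other member's call changed.

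Signs turned for members near 0 or below it. With library totals the log2 fold changes were Tfeb 0.52, Mitf 0.64, Flcn 1.13, Rragd 1.15, Lamp1 0.98, Ctsh 1.08, Glb1 1.00, Lipa 0.72, Ulk1 0.65, Map1lc3b 0.87, Gabarapl1 1.14, Optn 1.04 and Nbr1 0.41, all below the median shift of 1.16. With hormone and granule gene scaling they were Flcn 0.092, Rragd 0.26, Lamp1 0.035, Ctsh 0.22, Glb1 0.10, Map1lc3b 0.039, Gabarapl1 0.17 and Optn 0.27, and without a filter Flcn 0.044, Rragd 0.088, Ctsh 0.041, Gabarapl1 0.038 and Optn 0.057. Fnip1 was at -0.0051 with the 1 CPM filter, -0.020 in limma-voom and -0.0043 with the replicate block, Psap at -0.027 in limma-voom and -0.0058 with the block, and Optn at 0.0062 with the block. With 1 library left out, the values that crossed 0 ran from -0.41 to 0.13 (Flcn), -0.11 to 0.15 (Fnip1), -0.039 to 0.059 (Rragd), -0.19 to 0.057 (Ctsh), -0.086 to 0.43 (Manba), -0.33 to 0.26 (Psap), -0.058 to 0.50 (Npc2), -0.15 to 0.039 (Gabarapl1) and -0.27 to 0.14 (Optn). None of these genes but Tfeb and Nbr1 had passed in the main analysis; beyond the choice of library sizes and libraries, the cause was not tested. The share of matched members with the motif was 28.6% for CACGTG, 25.7% for TCACGTG and 11.4% for TCACGTGA; each longer form contains the shorter, so these shares can only fall, as they do over all genes (8.09%, 4.29% and 1.12%).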
